A study of Mus musculus with 2 samples.

Results

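The cells described here were picked out by 4 transcription factor genes of the intermediate mesoderm and urogenital ridge, Pax2, Pax8, Wt1 and Emx2. A cell was selected when its unique molecular identifiers (UMIs, counted RNA molecules) for these genes summed to at least 3 and came from at least 2 of them, and when it held no UMI of Sox2, Elavl3, Cdh5 or Pax3, which mark neural progenitors, neurons, endothelium and dermomyotome. In all, 481 of 19446 cells that passed the quality filter were selected: 202 of 9851 at embryonic day 9.5 (E9.5) and 279 of 9595 at E11.5. Their share was 2.05% at E9.5 (95% Clopper-Pearson interval 1.78 to 2.35%) and 2.91% at E11.5 (2.58 to 3.26%). With every cell thinned to 5000 UMIs it was 0.902% and 0.868%, so no order of the stages is read from these shares. At E9.5, all 5 nephric duct genes and 4 of 6 nephrogenic genes with enough UMIs were at least 2-fold higher in the selected than in the other cells. None of them was at least 2-fold lower, and over all genes 5.76% were higher. Some, such as Gfra1 and Gdnf, had enough UMIs only because they were high in the selected cells, so these counts are fixed in part. Single genes were found in part of the cells, with a UMI of Lhx1 in 57.9%, of Ret in 26.7% and of Gdnf in 12.9%. At E11.5 the duct list was divided, with 2 of 5 genes (Gata3 and Calb1) at least 2-fold higher than in the other cells and 2 at least 2-fold lower. The duct genes Lhx1 and Ret were at 21 and 2 UMIs in all 279 cells. Genes of the coelomic epithelium and early gonad stood high, in a minority of the cells. The E11.5 cells are therefore called Wt1 and Emx2 cells below and are not given a nephric name.

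Inter-limb somites were dissected from wild-type C57BL/6 mouse embryos at E9.5 and E11.5, and 3 embryos of each age were pooled, dissociated with trypsin and run on the 10x Chromium platform. There was 1 library per stage, so stage and library cannot be told apart, and no test between conditions could be made. Over all barcodes the E9.5 library held 149368952 UMIs and the E11.5 library 136655763, and the kept cells had medians of 12462 UMIs and 3470 genes in the former and 12479 UMIs and 3622 genes in the latter. The dissection aimed at somites, so the share of selected cells is that of the dissected pieces and not of the embryo. The 2 libraries had 30 cell barcodes in common, and 3 selected cells carried such a barcode.

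The intermediate mesoderm lies between the somites and the lateral plate. Pax2, Pax8, Lhx1 and Gata3 act there in the forming nephric duct, an epithelial tube that grows caudally along the trunk and expresses the receptor Ret. Beside the duct, nephrogenic mesenchyme expressing Osr1, Eya1, Sall1 and Wt1 secretes the Ret ligand Gdnf and later forms tubules under Wnt9b and Wnt4. Wt1 and Emx2 are also active in the coelomic epithelium and the gonadal ridge, where Gata4, Lhx9 and Nr5a1 are needed for the gonad to form.

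Levels are given as UMIs per 1000000 UMIs of a group (UPM), summed over the cells of that group. Intervals on levels and ratios are exact 95% Poisson intervals, which cover counting error only and not the spread between embryos. A ratio is written as log2 of the level in the selected cells over that in all other kept cells of the same library, and "past 2-fold" means a log2 ratio of at least 1 or at most -1. Because the cells were chosen by their own RNA, and genes that travel with the 4 genes were chosen with them, every ratio against the other cells is a description. A gene entered a comparison through its UMIs, so a gene detected mainly on the side where it was high had to be past 2-fold, and counts over a list are fixed in part by that minimum.

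The 4 genes were used in different combinations at the 2 stages. At E9.5, Pax8 was found in 173 selected cells with 450 UMIs, Pax2 in 153 cells with 312 UMIs, Emx2 in 114 cells with 288 UMIs and Wt1 in 94 cells with 249 UMIs. At E11.5, Emx2 was found in 275 cells with 773 UMIs and Wt1 in 272 cells with 1120 UMIs, whereas Pax8 had 38 UMIs in 13 cells and Pax2 had 13 UMIs in 9 cells. The most frequent combination at E9.5 was Pax2, Pax8 and Emx2 (59 cells), followed by Pax2, Pax8 and Wt1 (31), Pax8 and Wt1 (24) and Pax2 and Pax8 (20), and all 4 genes were detected in 18 cells. At E11.5, 261 of the 279 cells held Wt1 and Emx2 and neither Pax gene.

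**Figure D1:**
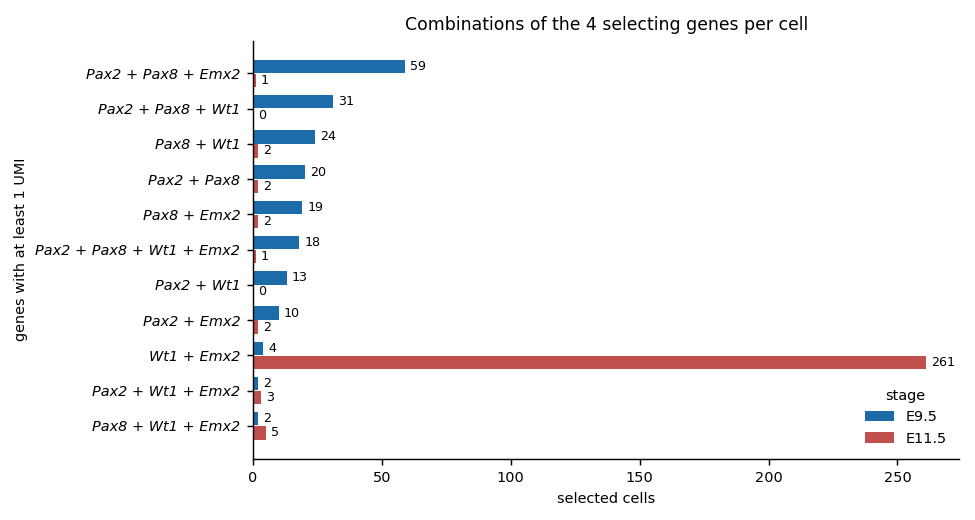
Number of selected cells (horizontal axis) with each combination of the 4 selecting genes (vertical axis), coloured by stage. At E9.5 the cells spread over many combinations with 59 in the most frequent, and at E11.5 the pair Wt1 and Emx2 holds 261 of 279 cells.

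The selection took most of the library's Pax2 and Pax8 RNA at E9.5 and a small part at E11.5. The selected cells held 65.4% of all Pax2 UMIs and 60.8% of all Pax8 UMIs of the E9.5 library, and 46.5% of Emx2 and 26.4% of Wt1. In the E11.5 library they held 37.6% of the Wt1 UMIs, 15.8% of Pax8, 12.1% of Emx2 and 4.59% of Pax2. In GRCm38 coordinates, Pax2 (chr19:44756045-44837871) and Emx2 (chr19:59458372-59465357) lie on the forward strand of chromosome 19, and Wt1 (chr2:105126529-105173616, forward strand) and Pax8 (chr2:24420560-24475599, reverse strand) on chromosome 2.

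The median summed count of the 4 genes was 6 UMIs per selected cell at both stages. At the lower limit, 42 cells of E9.5 and 47 of E11.5 had exactly 3 UMIs, and 30 and 34 cells fell just outside with 2 UMIs from 2 genes. At E9.5 the cells just inside had Lhx1 at 109 UPM against 63.4 UPM just outside, Gata3 at 67.9 against 28.2 UPM and Jag1 at 93.1 against 32.9 UPM, while Osr1 was at 87.3 against 101.0 UPM and Wnt4 at 21.3 against 21.1 UPM. The cells just outside thus carried Osr1 and Wnt4 at levels like those just inside. Neither of these 2 genes separated the selected cells from lateral plate cells, as described below.

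At E9.5, 577 of 10024 genes with enough UMIs (5.76%) were at least 2-fold higher in the selected cells than in the other 9649 cells, and 311 (3.10%) at least 2-fold lower, with a median log2 ratio of 0.07 over all genes. Of the 8 nephric duct genes listed, 5 were past 2-fold higher and 3 had too few UMIs to enter. Lhx1, a LIM homeobox factor needed for duct extension, was at 221 UPM in the selected cells and 4.78 UPM in the others, a log2 ratio of 5.53 (5.37 to 5.69). Gata3, a zinc finger factor that guides the duct, was at 83.8 against 4.81 UPM (4.12, 3.90 to 4.34). The receptor tyrosine kinase Ret was at 35.1 against 4.90 UPM (2.84) and its co-receptor Gfra1 at 21.8 against 1.85 UPM (3.56). Sim1 was at 30.8 against 4.78 UPM (2.69). Wnt9b and Calb1 had 8 and 3 UMIs and Cdh16, a cadherin of the mature tubule, had none.

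Single genes were found in differing shares of the selected cells. Among duct genes Lhx1 had a UMI in 57.9% of them, Ret in 26.7%, Sim1 in 23.8% and Gfra1 in 20.3%, which became 46.7%, 20.1%, 11.6% and 8.54% after thinning to 5000 UMIs and 46.5%, 12.9%, 10.4% and 7.43% when 2 UMIs were asked for. Pcp4, a calmodulin-binding peptide, had a UMI in 83.7% of selected cells at E9.5, against 5.54% of 289 endothelial cells, a class chosen by its own markers. Sall1 was detected in 73.8% against 12.1%, Jag1 in 57.4% against 19.7% and Gata3 in 48.5% against 16.6%, and of these Jag1 and Gata3 are also known from endothelium. The median depth was 12032 UMIs in selected and 14868 in endothelial cells, and after thinning every cell to 5000 UMIs (3 selected and 9 endothelial cells were too shallow) the shares were 67.3% against 2.14% for Pcp4, 44.7% against 3.93% for Sall1, 41.2% against 5.71% for Jag1 and 28.6% against 6.07% for Gata3. The shares in selected cells were above the endothelial ones for each of these 4 genes, thinned or not. In 106 lateral plate cells (median 14100 UMIs), also chosen by their own markers, the shares were 12.3% for Pcp4, 33.0% for Sall1, 38.7% for Jag1 and 23.6% for Gata3, and 4.81%, 14.4%, 17.3% and 9.62% after thinning, so all 4 lay closer to the selected cells there than in endothelium.

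The nephrogenic list had 6 of 9 genes with enough UMIs, 4 past 2-fold higher and none past 2-fold lower, with a median of 1.86. Osr1, the odd-skipped factor that marks the early intermediate mesoderm, was at 84.9 UPM in selected cells and 14.3 UPM in others (2.57). Sall1, a zinc finger factor of kidney progenitors, was at 136 against 29.97 UPM (2.18). Gdnf had 34 UMIs in 26 selected cells, 12.2 against 0.548 UPM, a log2 ratio of 4.47 (3.84 to 5.08). Eya1, a transcriptional cofactor with phosphatase activity, was at 27.9 against 17.4 UPM (0.68), short of 2-fold. Both the duct receptor and the mesenchymal ligand of the Gdnf pathway were therefore high in the same selection. Whether single cells held both was not tested.

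Among genes of the forming tubule and glomerulus, 4 of 5 with enough UMIs were past 2-fold higher and 1 was past 2-fold lower, with a median of 1.42. The Notch ligand Jag1 was at 123 against 17.8 UPM (2.79), Fgf8 at 46.2 against 10.00 UPM (2.21) and Wnt4 at 36.5 against 13.6 UPM (1.42). Podxl, the sialomucin that coats podocytes and also endothelium, was the lower member at 2.86 against 13.4 UPM (-2.22, -3.44 to -1.24).

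Of the Gdnf, Ret and fibroblast growth factor list, 9 of 13 genes were past 2-fold higher and none lower, with a median of 2.21, and 4 of the 13 (Ret, Gfra1, Gdnf and Fgf8) were also counted in the lists above. Fgf9 was at 41.2 against 3.70 UPM (3.48) and Etv4, an ETS factor induced by Ret and Fgf signals, at 60.1 against 6.17 UPM (3.29). The feedback inhibitor Spry1 had a log2 ratio of 2.34 and Etv5 one of 1.71, whereas Dusp6 (0.61) and Spry2 (0.44) were short of 2-fold. In the Wnt list 6 of 11 genes were past 2-fold higher and 1 lower. Wnt11, a ligand of the duct tip, was at 38.7 against 3.47 UPM (3.48), and the secreted inhibitors Frzb (78.8 against 13.3 UPM) and Sfrp2 (400 against 103 UPM) were also high. Axin2 (-0.55) and Lef1 (-0.07), which read out canonical Wnt signalling, were not past 2-fold, and Rspo3 was lower (-2.25).

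Genes of retinoic acid handling divided evenly, with 4 of 10 past 2-fold higher and 4 past 2-fold lower. The synthesising enzyme Aldh1a3 was at 19.0 against 0.972 UPM (4.29) in 22 selected cells, the retinol oxidase Rdh10 at 120 against 21.5 UPM (2.48) and the degrading enzyme Cyp26a1 at 29.0 against 2.27 UPM (3.67). Aldh1a2, the main synthesising enzyme of somitic mesoderm, was at 29.0 against 91.8 UPM (-1.66), and the binding protein Crabp1 at 94.5 against 580 UPM (-2.62). Of the enzymes that make retinoic acid, Aldh1a3 was thus on the high side of the selection and Aldh1a2 on the low side.

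In the Notch list 3 of 9 genes were past 2-fold higher and none lower, among them the target Heyl (1.41). In the Bmp list 3 of 8 were past 2-fold higher, namely Bmp2 (2.99), Bmp4 (2.10) and Bmp7 (1.94). Of 11 cell cycle genes only the inhibitor Cdkn1c was past 2-fold, at 1245 UPM against 247 UPM (2.33, 2.28 to 2.38) and in 197 of 202 cells, while the proliferation genes Mki67 (0.05) and Top2a (0.12) were level with the other cells.

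The mesenchyme list lay on the low side, with 6 of 9 genes past 2-fold lower, none higher and a median of -1.66. Vim was at 102 against 345 UPM, Twist1 at a log2 ratio of -1.66, Pdgfra at -1.87 and Col3a1 at 29.4 against 94.8 UPM (-1.69). Of the paraxial list, 4 of 8 genes were past 2-fold lower, with the somite factors Pax9 (-4.55) and Tcf15 (-3.14) among them, although Meox1, which is expressed throughout the somite, was at 225 against 211 UPM (0.09). Of 5 lateral plate genes with enough UMIs, Foxf1 (-2.94), Pitx1 (-2.31) and Isl1 (-1.03) were past 2-fold lower and Bmp4 (2.10) past 2-fold higher.

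The epithelial list had 4 of 6 genes past 2-fold higher and none lower, with a median of 1.16. The polarity gene Crb3 stood at 2.77 and the keratin Krt18 at 1.19. Cldn6 (1.19) had its UMIs in 9 cells, and Krt19 (1.04), listed with the coelomic epithelium, had 34 UMIs. When the selected cells with few neighbours of their own kind were left out, both reversed, to -0.45 for Cldn6 and -0.48 for Krt19, and Krt19 was at -0.20 when at least 4 UMIs of the selecting genes were asked for. Genes of surface ectoderm had 58 UMIs in the selected cells, of which 40 lay in 2 cells, with Wnt6 the most abundant, and their part in these epithelial values was not tested. Of the coelomic epithelium and gonad list, 3 of 10 genes had enough UMIs, of which 1 (Krt19) was past 2-fold higher and none lower, with a median of 0.77. Tcf21 (0.77) and Gata6 (-0.65) were within 2-fold, Bnc1 had 5 UMIs, and Upk3b, Upk1b, Msln, Lhx9, Gata4 and Nr5a1 had none in the E9.5 selected cells.

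**Figure D2:**
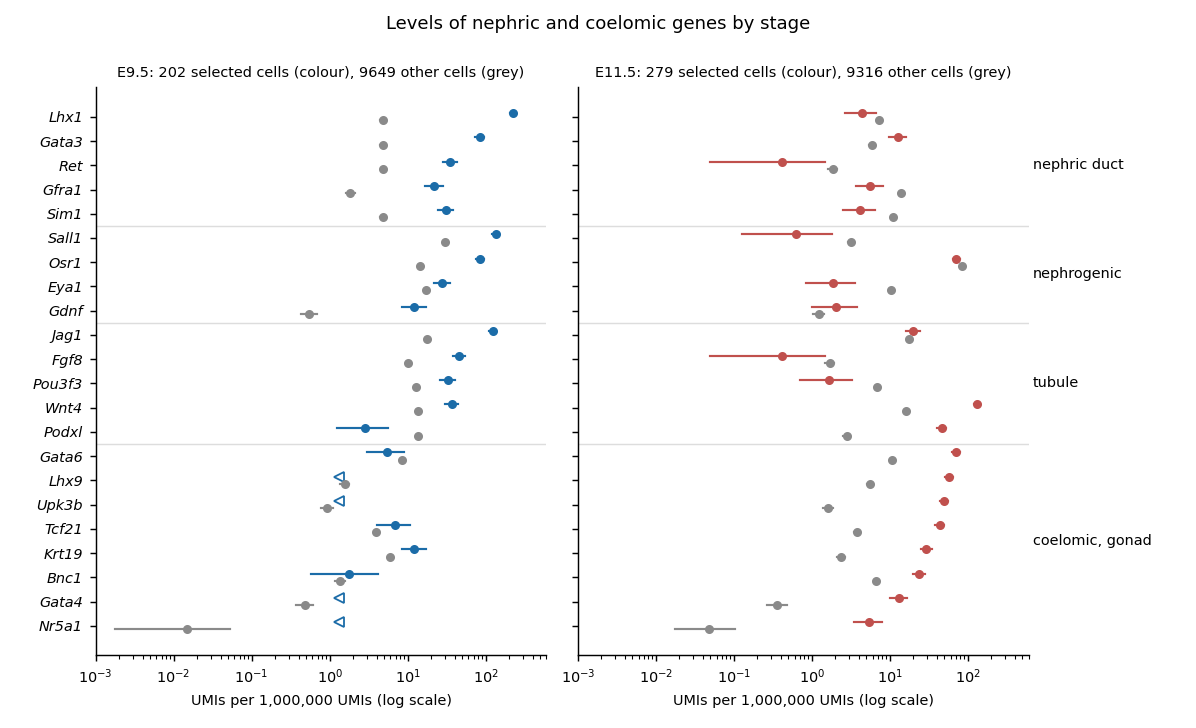
Levels in UMIs per 1000000 UMIs (log axis) of 22 genes by role in the selected cells (coloured) and in all other kept cells (grey) of the E9.5 and E11.5 libraries, with exact 95% Poisson intervals and open triangles for the upper bound where no UMI was counted. Lhx1 lies at 221 against 4.78 UPM at E9.5 and at 4.34 against 7.26 UPM at E11.5, and Upk3b has no UMI at E9.5 and lies at 49.4 against 1.60 UPM at E11.5.

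Outside the lists, the highest ratios belonged to genes with narrow expression. The oxytocin receptor Oxtr had 84 UMIs in 52 selected cells and a UMI in 36 other cells, 30.1 against 0.329 UPM, a log2 ratio of 6.51 (5.98 to 7.07). Gpx6, a glutathione peroxidase, was at 110 against 2.19 UPM (5.66) in 102 cells, and the lipid phosphatase Plpp4 had a ratio of 5.85. Clec18a (6.42), Tmem114 (6.05), the serotonergic ETS factor Fev (5.54), the small GTPase Rem1 (5.44) and the peptide hormone somatostatin, Sst (5.29), were also among the highest. At the other end lay Hes5 (-5.98), Ednrb (-5.91), Pou3f2 (-5.66) and Pax6 (-5.04), each with 1 to 3 UMIs, which are genes of neural or neural crest cells. Emx2os (4.99) and Lhx1os (4.28) are transcribed on the opposite strand beside Emx2 and Lhx1. In the annotation Emx2os overlaps Emx2 at its 5′ end only, where reads of the 2 genes cannot be told apart without strand, and Lhx1os does not overlap Lhx1.

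Named classes of E9.5 cells were set beside the selected cells for a few genes, some of which differed between them and some of which did not. Lhx1 was at 221 UPM in the selected cells, 8.70 UPM in 106 lateral plate cells, 3.66 UPM in 1119 Pax3 cells of the somite, 0.911 UPM in 421 sclerotome cells and 2.42 UPM in 1958 neural tube cells. Pcp4 was at 368 UPM in selected cells and 69.1 UPM in sclerotome, the next of these classes. Osr1 did not separate the selected cells from lateral plate (84.9 and 67.9 UPM), nor did Wnt4 (36.5 and 35.97 UPM). Meox1 was higher in Pax3 cells (460.0 UPM) and sclerotome (382 UPM) than in selected cells (225 UPM), and lower in lateral plate (30.8 UPM). These classes were also chosen by their own RNA, and their levels are set side by side without a test.

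The E9.5 selected cells were divided by Wt1, which marks mesenchyme rather than duct. There were 94 cells (46.5%, 39.5 to 53.7%) with at least 2 UMIs of Pax2 and Pax8 and none of Wt1, and 90 cells (44.6%, 37.6 to 51.7%) with Wt1 together with Pax2 or Pax8. Thinned to 5000 UMIs, the selected cells divided into 54.8% without and 26.2% with Wt1, so the size of the 2 groups depends on depth. Another 4 cells had Wt1 and neither Pax gene, and 14 had no Wt1 UMI and fewer than 2 UMIs of Pax2 and Pax8. These 4 and 14 cells are in neither group. Here and below, "without Wt1" means the 94 cells and "with Wt1" the 90. The 94 needed at least 2 UMIs of Pax2 and Pax8 and the 90 at least 1, so the groups differ in this minimum as well as in Wt1. The cells without Wt1 had a median of 11065.5 UMIs and those with Wt1 12715.5 UMIs. Of 8470 genes with enough UMIs, 414 (4.89%) were at least 2-fold higher in the cells without Wt1 and 295 (3.48%) at least 2-fold higher in the cells with Wt1, that is lower in those without.

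Of the 8 duct genes, 5 were past 2-fold higher in the cells without Wt1 and the other 3 had too few UMIs, where the median over all genes was 0.0016. Ret had 87 UMIs in 46 of 94 cells without Wt1 and 4 UMIs in 3 of 90 cells with it, 70.9 against 3.06 UPM, a log2 ratio of 4.53 (3.13 to 6.44). Sim1 was at 63.6 against 3.82 UPM (4.06), Lhx1 at 406 against 68.1 UPM (2.58, 2.25 to 2.92) and Gata3 at 145 against 24.5 UPM (2.57). Gfra1 (1.78) was closer between the groups. The selected cells without Wt1 thus held most of the Ret and Sim1 UMIs of the E9.5 selection, and Gfra1 was more evenly shared.

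Other genes followed the same side. Wnt11, the ligand that Ret signalling induces at the duct tip, had 97 UMIs against 2, 79.1 against 1.53 UPM (5.69, 3.80 to 8.76). The zinc finger factor Mecom was at 172 against 8.41 UPM (4.35), Tfap2a had 91 UMIs against 3 (5.01), Plac8 was at 314 against 13.8 UPM (4.51), and Pou3f3 (3.64), a factor of the ascending tubule, Fev (4.85) and Aldh1a3 (3.32) were also higher. Gchfr, Amigo2 and 1700086L19Rik had 71, 40 and 30 UMIs without Wt1 and none with it, and counting the absent side as 3 UMIs puts their log2 ratios at 4.66, 3.83 and 3.41 or more. All 4 epithelial genes with enough UMIs were past 2-fold higher, with Krt8 at 2.52, Epcam at 2.41 and Krt18 at 1.02. Oxtr (-0.55), Sst (0.09) and Fgf9 (-0.38), in contrast, were within 2-fold between the groups, as were the proliferation gene Mki67 (0.04) and the nephrogenic factor Sall1 (0.91).

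Osr1 and several mesenchymal genes lay on the side of the cells with Wt1, although the mesenchyme list as a whole was divided, with 4 of 9 genes past 2-fold higher with Wt1, 1 (Prrx1, 1.61) past 2-fold higher without it and a median of -0.44. Osr1 had 201 UMIs in 68 of these 90 cells and 22 UMIs in 16 of the 94 without Wt1, 154 against 17.9 UPM, which is a log2 ratio of -3.10 (-3.81 to -2.46) for the cells without Wt1. The forkhead factor Foxd1, later of the renal stroma, had 135 UMIs against 18 (-2.82), the imprinted ligand Dlk1 324 against 63 (-2.27) and Col3a1 64 against 7 (-3.10). Pdgfra (-3.43), Eya1 (-1.37), Gdnf (-1.17), Frzb (-1.92) and Heyl (-1.86) lay on the same side, and Dio3 had 34 UMIs against 1. Nefm and Adh1 had 23 and 20 UMIs with Wt1 and none without it. Cdkn1c was high in both groups and higher with Wt1, at 1910 UPM against 732 UPM. Wnt4 (-0.58) and Aldh1a2 (-0.18) did not pass 2-fold.

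Hox genes, whose 3′ members are active further forward in the trunk and whose 5′ members are active further back, also differed between the 2 groups. Of 26 with enough UMIs, 8 were past 2-fold higher in the cells with Wt1 and 2 in the cells without it. Hoxc8 was at 180.5 UPM with Wt1 (58 of 90 cells) and 31.8 UPM without (14 of 94 cells), a log2 ratio of -2.51. Hoxa9 (-2.56), Hoxc9 (-2.34), Hoxd9 (-1.13) and Hoxb9 (-1.05) lay the same way, as did Hoxb1 (-1.41) and Hoxa2 (-1.08) from the 3′ end. Hoxb6 (1.47) and Hoxc5 (1.48) were higher without Wt1. Which axial level each cell came from is not recorded.

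Compared with all other E9.5 cells, the selected cells as a whole had 9 of 26 Hox genes past 2-fold higher and none lower. Over all genes 5.76% were past 2-fold higher and 3.10% lower. Hoxd1 (2.15), Hoxb6 (1.81), Hoxd8 (1.65), Hoxa7 (1.58), Hoxb8 (1.48) and Hoxc8 (1.45) were among them, and Hoxb9 was at 250 against 123 UPM (1.03).

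At E11.5, 371 of 11701 genes (3.17%) were at least 2-fold higher in the 279 Wt1 and Emx2 cells than in the other 9316 cells and 599 (5.12%) at least 2-fold lower, with a median log2 ratio of 0.04. The selected cells were deeper, with a median of 15635 UMIs against 12391.5. Of the 10 genes of the coelomic epithelium and gonad list, 9 were past 2-fold higher and Msln had too few UMIs. Several of the 9, such as Nr5a1 and Gata4, entered through the selected cells alone, and they were found in a minority of them, with a UMI of Upk3b in 23.3%, of Lhx9 in 12.9%, of Gata4 in 8.96% and of Nr5a1 in 6.09% of the 279 cells (15.6%, 9.42%, 5.43% and 2.54% after thinning to 5000 UMIs). Upk3b, a uroplakin of mesothelium, was at 49.4 UPM in selected cells and 1.60 UPM in others (4.95, 4.67 to 5.23). The gonadal factor Gata4 was at 13.0 against 0.360 UPM (5.18), Lhx9 at 57.7 against 5.49 UPM (3.39) and Gata6 at 70.8 against 10.5 UPM (2.75). Nr5a1, the steroidogenic factor, had 26 UMIs in 17 cells (6.81). Krt19 (3.63), Tcf21 (3.54), Upk1b (4.23) and Bnc1 (1.82) completed the list.

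The nephric lists gave no such pattern. Of 5 duct genes with enough UMIs, 2 were past 2-fold higher and 2 lower, with a median of -0.74. Lhx1 was at 4.34 against 7.26 UPM (-0.74, -1.44 to -0.12), with its 21 UMIs in 6 cells, and Ret had 2 UMIs in 1 cell. Gata3 (1.11) and Calb1 (1.87) were higher, Sim1 (-1.41) and Gfra1 (-1.31) lower, and Gfra1 stood at 0.03 when no gene was required to be absent. Among nephrogenic genes Eya1 (-2.46) was lower, Osr1 was at 71.2 against 83.7 UPM (-0.23), and Sall1 had 3 UMIs in all the selected cells. Hoxa11 (1.58) and Hoxd11 (1.06), used in the metanephros and also in the limb, were higher with 16 and 25 UMIs.

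The tubule list had 2 of 5 genes past 2-fold higher and 1 lower, Pou3f3 (-2.07, or 0.71 when no gene was required to be absent). The 2 higher genes were Wnt4 at 131 against 16.25 UPM (3.01) and Podxl at 46.3 against 2.79 UPM (4.06, 3.81 to 4.30). Aldh1a2 was at 388 UPM against 23.8 UPM (4.03, 3.94 to 4.11), and in 75.6% of selected cells against 4.11% of 73 endothelial cells, at median depths of 15635 and 18787 UMIs, and in 60.1% of selected cells after thinning to 5000 UMIs. Crabp1 was at 814 against 363 UPM (1.16) and Rdh10 at 1.74. The keratins Krt18 (2.98) and Krt8 (2.26) were higher. The mesenchyme list had no gene of 9 past 2-fold in either direction (Twist1 0.04, Col3a1 0.21, Vim -0.49).

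The highest ratios at E11.5 were again those of narrow genes. Edn2 (7.63), Gm2044 (7.60), the epidermal growth factor ligand Ereg (7.15) and the carboxypeptidase Cpa1 (7.01, 135 UMIs in 10 cells) led, followed by Nr5a1, the mesothelial mucin Muc16 (6.61) and Amhr2, the receptor for anti-Müllerian hormone (6.13). Kctd14 had 840 UMIs in 33 cells, 174 against 3.15 UPM (5.79, 5.61 to 5.96). At the low end Pf4 had 1 UMI (-7.46), Ednrb 2 (-6.59) and Fabp7 12 (-5.64), and Hes5 and Sox10 had none.

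Among lists of other cell types, all 6 neural, all 5 neural crest and all 7 muscle genes with enough UMIs were past 2-fold lower. The surface ectoderm list had 4 of 6 genes lower and 1 (Wnt6, 1.58) higher, the lateral plate list 2 of 6 lower and 1 (Pitx1, 1.02) higher, and the 1 germ cell gene with enough UMIs was at 0.10. The neural and neural crest values depended on the rule, since Stmn2 stood at 0.59, Tubb3 at 0.94 and the neural crest factor Foxd3 at 1.12 when no gene was required to be absent. Muscle genes nevertheless had 2125 UMIs in the selected cells, 439.6 UPM against 1704 UPM in the others, with Tnnt1 the most abundant at 577 UMIs, and 15 cells with at least 10 such UMIs held 1835 of them. Blood genes had 11256 UMIs, of which 11014 lay in 2 cells and 6331 were Hbb-y. Without these cells the levels were 64.6 UPM for muscle and 50.7 UPM for blood. Neural genes had 156 UMIs, with Pax6, Sox1, Olig2, Hes5 and Neurog1 at 0, neural crest genes 50 with Sox10 at 0, and endothelial genes 76 with Tek at 0. With the muscle and blood cells left out, 405 genes were past 2-fold higher and 625 lower at E11.5.

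The E11.5 cells were then set apart by 2 groups of genes, a division made after their values had been seen. At least 2 UMIs of the gonadal factors Lhx9, Gata4 and Nr5a1 were found in 24 cells (8.60%), here called Lhx9/Gata4 cells, at least 2 UMIs of the mesothelial genes Upk3b, Upk1b and Krt19 in 55 cells (19.7%), here called Upk3b/Krt19 cells, both in 11 cells (3.94%) and neither in 189 cells (67.7%). Levels are described for these groups without a test, since the groups were made from the same reads.

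The 24 Lhx9/Gata4 cells held most of several leading transcripts. Kctd14 was at 2046 UPM in them, with 823 of its 840 UMIs, and at 1.93 and 2.49 UPM in the 55 Upk3b/Krt19 cells and the 189 others. Lgals7 was at 676, 4.83 and 2.80 UPM, Cpa1 at 333 UPM in 9 of the 24 cells and at 0 UMIs in the 55, and Wnt6 at 253.5, 8.69 and 8.72 UPM. Wnt4, needed for the female gonad and for the nephron, was at 564, 165 and 61.3 UPM. The UMIs of Tgm3, Cst8 and Gm2044 (25, 28 and 30) in selected cells all came from these 24. Of the 11 E11.5 cells with Wt1 and a Pax2 or Pax8 UMI, 9 were in this group.

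The 55 Upk3b/Krt19 cells had Lrrn4 at 61.8 UPM and Muc16 at 25.1 UPM, both at 0 UMIs in the 24 Lhx9/Gata4 cells, and Bnc1 at 70.5 UPM against 2.49 UPM. Aldh1a2 was at 682 UPM in them, 94.5 UPM in the Lhx9/Gata4 cells and 335 UPM in the 189 cells with neither set. Krt18 was at 136, 54.7 and 21.2 UPM in the same order. Podxl (100.4, 132 and 8.41 UPM) and Gata6 (82.1, 271 and 27.7 UPM) were high in these 55 and in the 24 Lhx9/Gata4 cells and lower in the 189. The 11 cells with both sets had Amhr2 at 179.6 UPM, Gata6 at 321 UPM and Tcf21 at 332 UPM, and Edn2 was found in 9 of them.

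The 189 cells with neither set had the highest levels of Foxd1, Hic1, Col3a1, Crabp1 and Osr1 among these 3 groups. Foxd1 was at 238 UPM in them against 67.6 UPM in the Upk3b/Krt19 and 7.46 UPM in the Lhx9/Gata4 cells, Hic1, a factor of stromal progenitors, at 137, 57.9 and 17.4 UPM, and Col3a1 at 732, 396 and 191 UPM. Crabp1 was at 1136, 224 and 124 UPM and Osr1 at 93.1, 26.1 and 44.7 UPM. Wt1 was lower in them (159 UPM) than in the Upk3b/Krt19 (307 UPM) and Lhx9/Gata4 cells (465 UPM), whereas Emx2 was similar in the 3 (153, 159 and 184 UPM). Dcn and Twist1 did not separate these 189 cells (122 and 374 UPM) from the Upk3b/Krt19 cells (122 and 336 UPM).

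**Figure D3:**
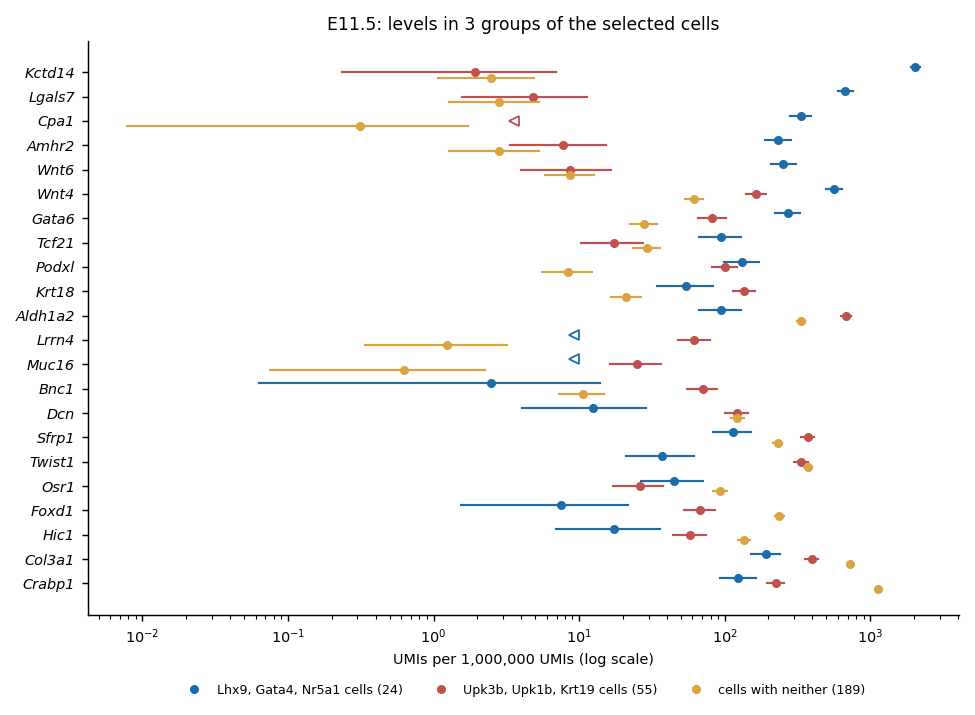
Levels in UMIs per 1000000 UMIs (log axis) of 22 genes in the E11.5 selected cells with gonadal factors (24 cells), with mesothelial genes (55 cells) and with neither (189 cells), with exact 95% Poisson intervals and triangles for the upper bound where no UMI was counted. Kctd14 lies at 2046 UPM in the 24 cells and below 3 UPM in the other groups, Lrrn4 and Aldh1a2 are highest in the 55 cells, and Foxd1 and Crabp1 are highest in the 189 cells.

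The nearest cells in expression space gave a measure of how far the selected cells form a group. The 20 nearest neighbours of each cell were found without the 8 selecting genes. At E9.5, 57.1% of the neighbours of selected cells were themselves selected, against 1.02% for the other cells, and 180 of 202 cells had at least 5 such neighbours. At E11.5 the share was 34.7% against 1.69%, 156 of 279 cells had at least 5, and 41 had none. Cells without Wt1 at E9.5 had 66.9% selected neighbours and cells with Wt1 and a Pax gene 49.8%, and at E11.5 the 11 cells with Wt1 and a Pax gene had 72.3%. Among E11.5 cells with at least 5 selected neighbours, Upk3b was at 89.1 UPM and Podxl at 80.7 UPM, against 2.26 and 5.43 UPM in those with fewer. Of the 189 cells with neither gene set, 69 had at least 5 selected neighbours, as did 23 of the 24 Lhx9/Gata4 and 53 of the 55 Upk3b/Krt19 cells.

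Cells that resembled the selection and were not in it were counted too. At E9.5, 148 other cells had at least 5 selected neighbours, of which 132 held a UMI of a selecting gene and 36 a UMI of a gene required to be absent, mostly Sox2 (22 cells) and Pax3 (17 cells). At E11.5 there were 171 such cells, 143 with a selecting gene and 14 with an excluded gene. The counts of 202 and 279 cells therefore leave out cells with at least 5 selected neighbours. That minimum was itself not met by 22 of the 202 and 123 of the 279 selected cells.

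Between stages, 1558 of 11132 genes (14.0%) were at least 2-fold higher in the E11.5 than in the E9.5 selected cells and 609 (5.47%) at least 2-fold lower, with a median log2 ratio of 0.07. The selection drew a different mixture of cells at each stage, so these ratios compare mixtures, and the ratio of the other cells of the same libraries is given beside them. Of 6 duct genes with enough UMIs, 5 were past 2-fold lower at E11.5 and 1 higher, with a median of -2.81. Lhx1 was lower by 5.67 on the log2 scale, where in the other cells it was higher by 0.60. Ret stood at -6.41 against -1.40, Gata3 at -2.73 against 0.28 and Gfra1 at -1.97 against 2.90. Sall1 (-7.77 against -3.24), Fgf8 (-6.80 against -2.56), Frzb (-5.40 against -0.75) and Pcp4 (-8.80 against -1.66) were lower as well. Gpx6, with 308 UMIs at E9.5, and Cyp26a1, with 81, had none at E11.5, which puts their log2 ratios at -7.47 and -5.55 or below, against -4.51 and -0.53 in the other cells.

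Of the 10 coelomic genes, 9 were past 2-fold higher at E11.5, of which Upk3b, Upk1b, Lhx9, Gata4 and Nr5a1 had no UMI at E9.5 and so entered through E11.5 alone. Podxl stood at 4.02 where the other cells gave -2.26, Aldh1a2 at 3.74 against -1.95, Gata6 at 3.72 against 0.31 and Crabp1 at 3.11 against -0.68. Of the 9 mesenchyme genes, 7 were past 2-fold higher in the E11.5 selected cells and none lower. Col3a1 stood at 4.35 against 2.45 in the other cells and Vim at 2.37 against 1.09. Twist1 stood at 2.09 against 0.39, which is short of 2-fold in the other cells. The genes with the highest ratios, Igf1 (9.54, with 1 UMI at E9.5), Nfia (9.17), Epha3 (8.60), Bcl11a (8.34), Nfib (8.29) and Dcn (8.26), had ratios of 4.84 to 7.20 in the other cells too. Osr1, in contrast, stood at -0.25 in the selected cells and 2.55 in the others.

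Among other cell types, the neural (2 of 2), endothelial (2 of 2), surface ectoderm (3 of 3) and germ cell (1 of 1) genes with enough UMIs were past 2-fold higher at E11.5. The 1 neural crest gene with enough UMIs was at 0.35. Over all genes 14.0% were past 2-fold higher. At E9.5, Tubb3, Stmn2, Emcn and Nanos3 had a UMI in 1.49%, 1.49%, 0.990% and 1.98% of selected cells. Such genes entered mainly through E11.5, so their direction was in part fixed by the minimum. All 7 muscle and all 4 blood genes with enough UMIs were past 2-fold higher too. Of the muscle genes, Myod1, Myog and Myh3 had 0 UMIs at E9.5 and so entered through E11.5 alone. The muscle and blood genes were looked at further. Most of their UMIs lay in the few cells counted above, but Tnnt1 had a UMI in 42.3% and Hbb-y in 40.5% of the 279 cells, against 30.1% and 43.8% of endothelial cells. After thinning to 5000 UMIs these shares were 19.9% and 15.6%, against 20.3% and 11.6%. Without the few cells Tnnt1 stood at 3.89, Myl1 at 2.21, Hbb-y at 1.66 and Mylpf at 0.23, where the other cells gave 6.54, 6.61, 1.70 and 5.79. Of 31 Hox genes, 13 were past 2-fold lower and 8 higher at E11.5, where 5.47% of all genes were lower and 14.0% higher. Hoxb9 (-3.78, other cells -1.62), Hoxb8 (-3.35 and -0.56) and Hoxb6 (-3.29 and -0.31) were lower, and Hoxa9 (1.72 and 1.93) and Hoxc9 (1.68 and 2.24) higher. No cell cycle gene of 11 was past 2-fold.

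Some genes lay on opposite sides of the other cells at the 2 stages. Podxl was at 2.86 UPM in E9.5 selected cells, below the 13.4 UPM of the others, and at 46.3 UPM at E11.5, above 2.79 UPM. Aldh1a2 went from 29.0 UPM against 91.8 UPM to 388 UPM against 23.8 UPM. The log2 ratio of Pcp4 went from 3.82 to -3.32. Wnt4 and Osr2 were on the high side at both stages (1.42 and 3.01 for Wnt4, 4.87 and 2.57 for Osr2).

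**Figure D4:**
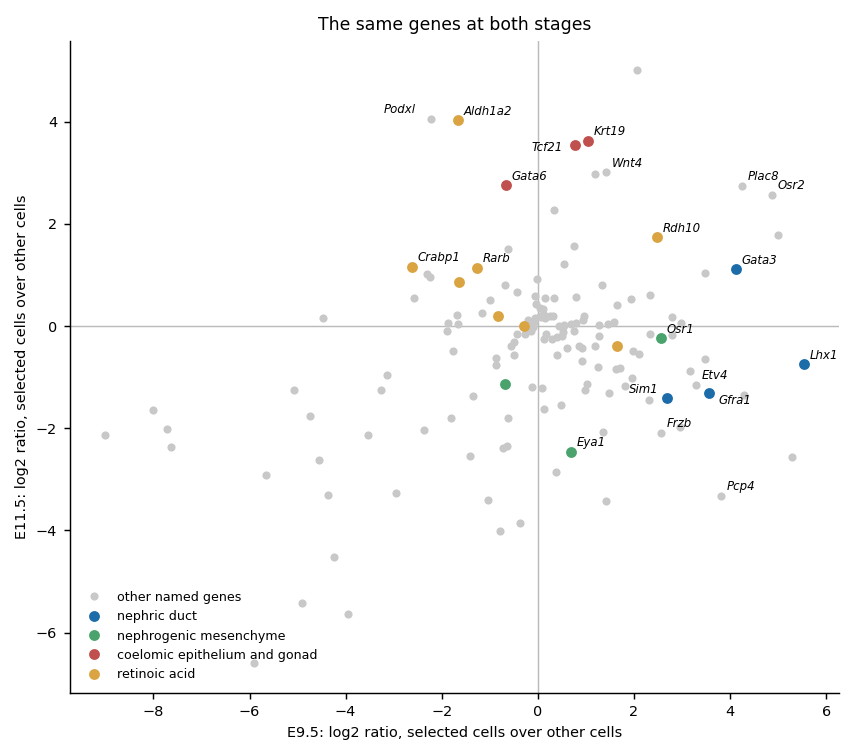
Log2 ratio of selected over other cells at E9.5 (horizontal axis) and at E11.5 (vertical axis), 1 point for each of 155 listed or otherwise named genes that had enough UMIs at both stages and a UMI in both groups. Pcp4 (3.82 and -3.32) lies at the lower right, Podxl (-2.22 and 4.06) and Aldh1a2 (-1.66 and 4.03) at the upper left, and Wnt4 (1.42 and 3.01) at the upper right.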

How the data were processed

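Single-cell RNA was measured in 2 libraries, 1 per stage. The authors aligned reads with Cell Ranger 3.0.1 to mm10 and deposited raw UMI counts per gene and cell; whether counting used strand is not given in the sources used here. The files held 10121 and 10167 barcodes and 27998 genes, and the study gives a round number of cells per stage without a per-filter count. Its stated filter (at least 200 and under 6500 genes, under 15% mitochondrial UMIs) was applied here and left 9851 cells at E9.5 and 9595 at E11.5. The selected cells, the 23 gene lists (223 genes) and the comparisons were chosen with earlier results of these data known. Some genes of the planned lists are not reported here and are left out of the list counts.

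Counts were summed over cells and scaled to 1000000 UMIs with numpy 2.4.6, pandas 2.3.3 and scipy 1.17.1 under Python 3.11.15, and no count model was fitted. Ratios have exact 95% Poisson intervals, shares have Clopper-Pearson intervals, and a count of 0 was set to 3 UMIs for bounds; these cover counting error only, and UMIs of 1 library are not replicates. A gene entered a comparison with at least 20 UMIs, observed plus expected in the selected cells against the others, or summed over both groups otherwise. Named genes were the listed genes, the 15 highest and 5 lowest ratios against the other cells (ranked by the interval's bound nearest 0) and the 10 at each end between stages or classes; positions are from GENCODE on GRCm38. Neighbours came from scikit-learn 1.9.0 (2000 variable genes, 30 principal components). No doublet was removed: Scrublet called 587 of 10121 barcodes at E9.5 (5 of the 202 selected cells) and 0 of 10167 at E11.5, where the caller has not worked. The code was tested on simulated counts. Matplotlib 3.10.9 drew the figures. The comparison of cells with Pax2 or Pax8 and cells with Wt1 and neither Pax gene was planned and is not reported, since 4 cells made up one side at each stage; the division by Wt1 at E9.5 and the gene groups at E11.5 were chosen after the data were seen.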

Additional observations from a re-analysis of the deposited data

Results flagged for a closer look

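Among 159 listed or otherwise named genes with enough UMIs at both stages, 20 (12.6%) lay past 2-fold in the selected cells on opposite sides of the other cells of their library at E9.5 and E11.5, each with an interval that excluded 0. Over all 9852 genes with enough UMIs at both stages, 55 (0.558%) did so; the named genes include those with the highest and lowest ratios, so the 2 shares are not alike in how their genes were chosen. With 1 library per stage the difference between stages was not tested. The other cells of the 2 libraries also differed in make-up. Differences are given as the E9.5 log2 ratio minus the E11.5 log2 ratio, with both ratios in that order.

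On the high side at E9.5 and the low side at E11.5 were Sst with a difference of 7.85 (5.29 and -2.56), Pcp4 with 7.14 (3.82 and -3.32) and Lhx1os, on the opposite strand beside Lhx1, with 5.62 (4.28 and -1.34). Tfap2a differed by 4.93 (2.95 and -1.98), Gfra1 by 4.87 (3.56 and -1.31), the Notch target Heyl by 4.83 (1.41 and -3.42) and Frzb by 4.66 (2.57 and -2.09). Etv4 differed by 4.44 (3.29 and -1.15), Sim1 by 4.10 (2.69 and -1.41), Mecom by 3.77 (2.32 and -1.45) and Pou3f3 by 3.41 (1.35 and -2.07). Sfrp2 differed by 2.98 (1.96 and -1.03), and the trunk Hox genes Hoxb6 by 2.98 (1.81 and -1.17), Hoxb8 by 2.79 (1.48 and -1.31) and Hoxb9 by 2.16 (1.03 and -1.14). For Sst, Lhx1os, Tfap2a, Gfra1, Pou3f3, Hoxb6, Hoxb8 and Hoxb9 the E11.5 side reversed when no gene was required to be absent.

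On the low side at E9.5 and the high side at E11.5 were Podxl with a difference of -6.28 (-2.22 and 4.06), Aldh1a2 with -5.69 (-1.66 and 4.03), Crabp1 with -3.78 (-2.62 and 1.16), the limb factor Pitx1 with -3.33 (-2.31 and 1.02) and the retinoic acid receptor Rarb with -2.40 (-1.26 and 1.14).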

How the results depend on the processing

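With 1 library per stage, no replicate could be left out. No paired analysis was possible because each stage has 1 library and no result comes from a test. The share of selected cells at E9.5 was 2.36% with at least 2 summed UMIs, 1.62% with at least 4, 2.54% with no gene required at 0 and 0.902% with cells thinned to 5000 UMIs, and at E11.5 2.42% with at least 4, 3.66% with no gene required at 0 and 0.868% when thinned. Thinning put the E9.5 cells without Wt1 at 54.8% and those with Wt1 and a Pax gene at 26.2%. The share of E11.5 cells with Wt1 and neither Pax gene was 79.2% with no gene required at 0 and 87.0% when thinned. Of 568 shares of selected cells with a UMI of a named gene, 426 left their interval when 2 UMIs were asked for and 394 when cells were thinned. With 15 principal components 26.9% of neighbours were selected at E11.5.

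Shares and counts of genes past 2-fold followed the minimum, which sets how many genes enter. With any UMI and with at least 50 UMIs, 15.1% (2250) and 4.07% (328) were higher and 9.03% (1347) and 1.83% (147) lower at E9.5. At E11.5 they were 9.67% (1603) and 2.28% (226) higher and 12.4% (2060) and 2.91% (289) lower. Between stages they were 25.9% (4300) and 10.6% (989) higher and 11.6% (1928) and 3.97% (369) lower, and between the E9.5 groups 17.7% (2517) and 2.95% (174) higher and 12.4% (1765) and 1.61% (95) lower. Thinned cells left 5220, 5386, 5563 and 2775 genes for these comparisons, with 4.75%, 3.99%, 10.7% and 6.59% higher and 2.20%, 2.45%, 6.85% and 3.17% lower.

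Of the named ratios past 2-fold, 436 could be recomputed with no gene required at 0, of which 419 kept their direction and 383 stayed past 2-fold. Reversed at E11.5 were Lhx1os (3.77), Sst (1.74), Dll3 (1.34), Foxd3 (1.12), Hoxb9 (1.10), Tubb3 (0.94), Tfap2b (0.71), Pou3f3 (0.71), Hoxb8 (0.68), Stmn2 (0.59), Pou3f2 (0.49), Tfap2a (0.36), Hoxb6 (0.28) and Gfra1 (0.028), and between stages Sst (1.47), Dll3 (0.70) and Emcn (-0.56). Thinning reversed Sst at E11.5 (2.07) and between stages (1.05), Hoxb3 between stages (0.022) and Spry1 between the E9.5 groups (-0.064), and 181 of 185 ratios kept their direction. With at least 4 summed UMIs Krt19 at E9.5 was at -0.20. Leaving out selected cells with under 5 selected neighbours, an alternative chosen after seeing the data, gave Krt19 -0.48, Cldn6 -0.45 and, between stages, Mylpf -0.80, and 318 of 321 kept their direction. Removing Scrublet calls (E9.5 only), asking for 1000 genes per cell, weighting cells equally, asking for at least 2 summed UMIs or leaving out muscle and blood cells (chosen after seeing the data) reversed no direction. The cause of these changes was not tested. The alternatives for the planned comparison with 4 cells on one side were not run.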
